A study of Mus musculus with 12 samples.

Results

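Regional identity in the brain of engrailed-2 mutants was described from 6 of the 12 arrays of the series, those hybridized with RNA of whole cerebellum (3 arrays) and whole hippocampus (3 arrays) of En2-/- mice (En2KO in the labels). The other 6 arrays, 3 of each region from wild type littermates (En2WT), were used only to ask how far the differences between the regions were kept, lost or gained without En2. The mutants carry the En2tm1Alj allele, a constitutive deletion of the homeobox. The line began on a mixed 129Sv x C57BL/6 and outbred background and was backcrossed to C57BL/6 for at least 5 generations, and both genotypes came from heterozygous matings. The animals were adults of 3 to 5 months and of both sexes, and 3 mice were taken per genotype. Each array was hybridized with Cy3-labelled RNA in 1 colour. The 6 arrays of a genotype thus came from 3 mice, and the regions share animals. The labels do not say which mouse each array came from, so arrays were fitted as separate samples and p-values measure the spread between these samples.

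The cerebellum arises from the anterior hindbrain under the influence of a signalling centre at the midbrain-hindbrain boundary, where the engrailed genes, Pax, Wnt and Fgf genes are active in the embryo. The hippocampus arises from the medial wall of the telencephalon, where Emx and Lhx genes act. In the adult, the cerebellum is dominated by glutamatergic granule cells and contains GABAergic Purkinje cells, and the hippocampus by pyramidal cells and the granule cells of the dentate gyrus. En2 encodes a homeodomain transcription factor, and mice lacking it are known for a small cerebellum with fewer Purkinje cells. Bulk tissue was measured, so fewer cells of a type and less RNA per cell cannot be told apart.

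Of the 43379 spots on each of the 12 arrays, 62.3 to 73.0% were well above background and none was saturated, and replicates of a group correlated with r of 0.978 to 0.990 across probes. Each slide held 1 array of each group, and each group lay at the same of the 4 positions on every slide, so position and group cannot be told apart. En2 itself was measured by a probe on chr5:28498468-28498528 (mm9). Per the study, the probe lies in the 3′ end of the message, outside the part that the allele removes, so its signal checks neither label. On the log2 scale, En2 read 8.10, 7.0 and 7.17 in the En2-/- hippocampus and 14.08, 14.81 and 14.51 in the En2-/- cerebellum. All 3 cerebellar arrays lay far above the hippocampal ones, with a difference of 7.04 ± 0.33 (SE; adjusted p = 1.3e-05), or 132-fold. In wild type mice the En2 difference was 6.43, and the change between genotypes did not pass the test (contrast 0.54, adjusted p = 0.62). En1, the paralogue, was too dim to be tested.

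The cerebellum and hippocampus of En2-/- mice differed widely. Differences are given as log2 cerebellum minus hippocampus, with their SE, throughout. Of 15336 genes tested, 4153 differed at an adjusted p under 0.05 (27.1%), 1983 of them higher in the cerebellum (12.9% of all tested) and 2170 higher in the hippocampus (14.1%). Differences of at least 2-fold were found for 2556 genes (16.7%), of at least 4-fold for 864 and of at least 16-fold for 157. The median size among called genes was 1.18 on the log2 scale, against a median SD between replicates of 0.245 among cerebellar and 0.204 among hippocampal arrays. The arrays of the regions did not overlap for 4142 of the called genes, beside 6974 of all 15336 tested. Of the called genes, 4089 had the same direction on all 3 slides. Both counts use the arrays that gave the calls, so they describe the calls and add no support. Leaving out cerebellum replicate 3 lowered the count of called genes to 2532 and leaving out hippocampus replicate 3 lowered it to 2724, and 2291 genes were called whichever array of the mutants was left out.

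The largest differences toward the cerebellum included those of genes of Purkinje and granule cells. Crtam, an adhesion molecule of the immunoglobulin superfamily, read 6.45, 5.43 and 5.65 in the hippocampus and 14.16, 13.81 and 14.41 in the cerebellum, a difference of 8.29 ± 0.30 (adjusted p = 5.0e-06) or 312-fold. Car8, a carbonic anhydrase-related protein of Purkinje cells that binds the IP3 receptor, read 7.45, 6.90 and 7.17 against 13.30, 14.00 and 13.84, a difference of 6.54 ± 0.24. Cbln1, which granule cells secrete to hold parallel fibre synapses on Purkinje cells, read 10.14, 11.19 and 10.92 against 16.54, 16.57 and 16.72, a difference of 5.86 ± 0.27. In none of these did any hippocampal array reach a cerebellar one. The corepressor Skor1 (5.95), the cytokine Il22 (5.86), the noncoding Lhx1os beside the Purkinje cell factor Lhx1 (5.85) and the matrix protein Ltbp2 (5.60) completed, with En2, the 8 largest log2 differences among genes well above background on all 6 arrays.

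Toward the hippocampus, the largest differences included those of genes of telencephalic principal neurons. Crym, the thyroid hormone-binding mu-crystallin, read 14.98, 15.27 and 15.60 in the hippocampus and 7.06, 6.35 and 6.46 in the cerebellum, a difference of -8.66 ± 0.25 (adjusted p = 2.2e-06) or 404-fold. Rgs14, a regulator of G protein signalling known from CA2 pyramidal cells, read 13.52, 13.84 and 13.50 against 6.37, 6.78 and 6.61, a difference of -7.04 ± 0.18. Icam5 (telencephalin), a dendritic adhesion molecule of the telencephalon, read 15.44, 15.39 and 15.86 against 8.85, 8.88 and 9.03, a difference of -6.65 ± 0.18. Replicates lay within 1 log2 unit of each other in both regions for each of these. The postsynaptic protein gene Ddn (-7.90), the kinase gene Ptk2b (-6.70), the receptor gene Mas1 (-6.36), the activity-regulated factor Egr3 (-6.11) and the lactase gene Lct (-6.04) followed.

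**Figure D1:**
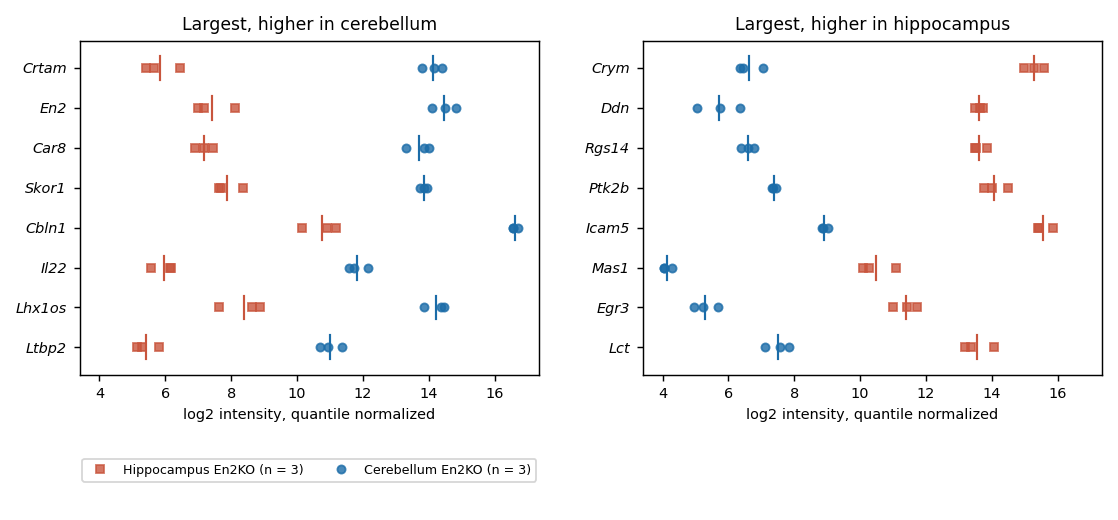
Log2 intensity (x axis, quantile normalized over the 6 En2KO arrays) of the 8 genes with the largest differences in each direction among genes well above background on all 6 arrays. Points are single arrays (3 per region) and short lines are means; no array of a region overlaps the other region for any of the 16 genes, as for Crtam with 5.43 to 6.45 in the hippocampus and 13.81 to 14.41 in the cerebellum.

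Among all genes tested, called or not, 318 were well above background on all 3 cerebellar arrays and on no hippocampal array, and 72 the other way round. For these the fold is a lower bound, set against the dimmest signal well above background. The anion exchanger Slc26a4 read 12.95, 12.43 and 12.83 in the hippocampus and 2.07, 2.28 and 2.07 in the cerebellum, which is at least 519-fold higher (adjusted p = 4.2e-07). The protease inhibitor gene Spink8 (at least 183-fold), 3110039M20Rik (at least 123-fold) and the interneuron homeobox gene Dlx1 (at least 68.1-fold) were also well above background in the hippocampus alone. In the cerebellum alone, Cnpy1, a modulator of FGF signalling at the midbrain-hindbrain boundary, was at least 141-fold higher. The glycine transporter Slc6a5 read 2.18, 2.18 and 2.09 in the hippocampus and 12.04, 11.69 and 11.62 in the cerebellum, at least 139-fold higher. The granule cell gene Cbln3 (at least 102-fold), Hoxb5 (at least 51.0-fold) and the D-amino acid oxidase gene Dao (at least 38.6-fold) followed.

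Markers of Purkinje and granule cells were higher in the cerebellum. All 16 Purkinje cell genes tested were higher there, with a median difference of 2.77 beside -0.03 for all genes tested. Ppp1r17, a phosphatase inhibitor of Purkinje cells, read 6.56, 4.46 and 5.01 in the hippocampus and 13.14, 13.25 and 13.21 in the cerebellum, a difference of 7.86 ± 0.48 (adjusted p = 4.1e-05). Its cerebellar arrays lay close together, and its hippocampal arrays were spread over more than 2 log2 units. The smallest difference was that of Pcp4, a calmodulin-binding peptide that CA2 and dentate cells also make, at 0.61 ± 0.17 (adjusted p = 0.033). Of the 15 granule cell genes, 14 were higher in the cerebellum (10 with all arrays above background), with a median of 2.44. Cbln3 and Fat2 passed the filter through the cerebellum alone. Gabra6, the GABA-A receptor subunit of cerebellar granule cells, read 5.85, 2.13 and 2.68 in the hippocampus, where the first array alone was well above background, and 14.72, 14.99 and 14.72 in the cerebellum. Cadps2, a vesicle release factor with a difference of 0.96, was the granule cell gene that did not pass. Genes of cerebellar inhibitory interneurons and Golgi cells were mixed, and 3 of 8 were higher in the cerebellum (Slc6a5, Glra1 and Pvalb). Of these, Slc6a5 and Glra1 passed the filter through the cerebellum alone, and with all arrays above background 1 was called. Grm2, a glutamate receptor of Golgi cells that dentate granule cells also make, was higher in the hippocampus (-3.85). Of 6 genes of Bergmann glia, the radial glia around Purkinje cells, 5 were higher in the cerebellum, led by Gdf10 (2.56), and Fabp7 showed no difference (-0.00). Leaving out cerebellum replicate 3 lowered the Bergmann glia count to 3.

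Most markers of hippocampal neurons were higher in the hippocampus. Of 17 pyramidal neuron genes tested, 14 were higher in the hippocampus (12 with all arrays above background), with a median of -2.24. Cacng5, an AMPA receptor auxiliary subunit, was higher in the cerebellum (0.95). Neurod6, a bHLH factor of excitatory forebrain neurons, read 12.52, 12.71 and 12.64 in the hippocampus and 7.24, 7.55 and 7.91 in the cerebellum, a difference of -5.06 ± 0.20 (adjusted p = 7.5e-06). Of 10 dentate granule neuron genes, 6 were higher in the hippocampus, with a median of -1.60. Dsp, the desmosomal protein desmoplakin, read 12.65, 12.11 and 11.85 against 6.06, 7.42 and 6.89, a difference of -5.41 ± 0.37. Prox1, the homeobox factor that specifies dentate granule cells, read 12.11, 11.94 and 11.92 against 10.14, 10.23 and 10.09, a smaller difference of -1.84 ± 0.15 that still left no overlap. Calb1, which Purkinje cells and dentate granule cells share, was 2.83-fold higher in the cerebellum. Of 10 forebrain interneuron genes tested, 9 were higher in the hippocampus, but Dlx1, Dlx2 and Dlx5 passed the filter through the hippocampus alone, and with all arrays above background 5 were called. Sst, the somatostatin gene, was among the smaller of these at -0.96 ± 0.30 (adjusted p = 0.048), with 13.66, 14.48 and 14.44 in the hippocampus against 13.49, 12.77 and 13.43 in the cerebellum.

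**Figure D2:**
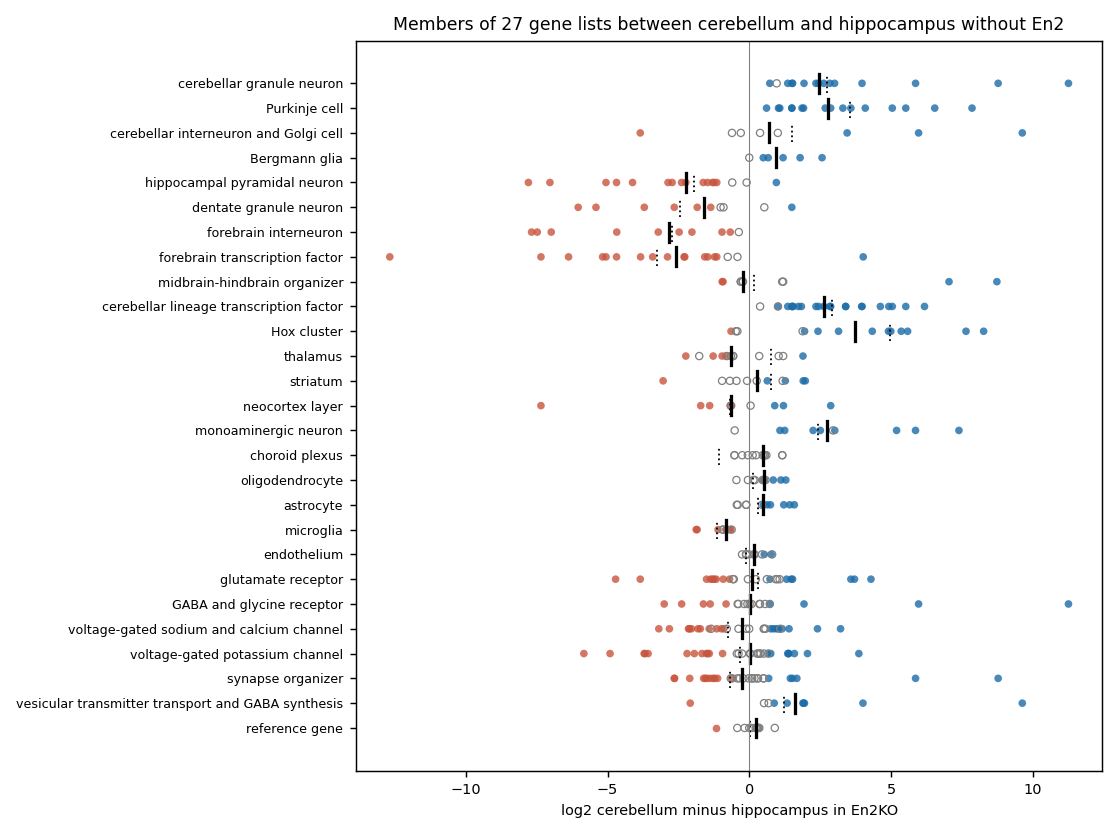
Difference between cerebellum and hippocampus in En2KO (x axis, log2) of each tested member of the 27 gene lists. Filled points passed the test (blue higher in cerebellum, red higher in hippocampus), open points did not, solid bars are list medians in En2KO and dotted bars list medians in En2WT; Purkinje cell members (median 2.77) lie right of 0 and most hippocampal pyramidal neuron members (median -2.24) left of it.

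Transcription factors that mark the embryonic origin of each region were separated in the adult mutant. Of 18 forebrain transcription factors tested, 15 were higher in the hippocampus (10 with all arrays above background), with a median of -2.60. Fezf2 and Tbr1 were among them, neither above background in the cerebellum (at least 54.4-fold and at least 39.2-fold). Emx2, which patterns the hippocampal field, read 10.01, 10.28 and 9.96 in the hippocampus and 3.70, 5.72 and 5.30 in the cerebellum, a difference of -5.18 ± 0.48 (adjusted p = 2.9e-04). Eomes was the exception. It is a T-box factor of cortical progenitors and also of unipolar brush cells of the cerebellum, and it read 4.95, 4.24 and 2.68 in the hippocampus, where no array was above background, against 7.57, 8.76 and 7.60 in the cerebellum (at least 9.78-fold higher). Of 23 factors of the cerebellar lineages tested, 21 were higher in the cerebellum (14 with all arrays above background), with a median of 2.63, and none in the hippocampus. Mab21l1 (6.18, above background on 1 of 3 hippocampal arrays), Lhx1 (5.52) and Lhx5 (5.04) were among them. Pax6, a factor of the granule cell lineage, read 9.48, 9.81 and 9.69 in the hippocampus and 12.38, 12.28 and 12.21 in the cerebellum, a difference of 2.63 ± 0.16. Zic1 read 16.54 to 16.77 in the cerebellum and averaged 12.67 on hippocampal arrays 1 and 2. Its spot carried an outlier mark on hippocampal array 3, and the fit used the remaining values.

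Genes of the midbrain-hindbrain organizer, the pathway in which the engrailed genes act, were mostly near the level of dim probes in the adult. Of 16 listed, 10 could be tested, and the median was -0.24. En2 and Cnpy1 were higher in the cerebellum. Spry2, a feedback inhibitor of FGF signalling, was higher in the hippocampus (-0.93), and so was Il17rd, another inhibitor of that pathway (-0.96, but -0.34 with an adjusted p of 0.25 without hippocampus replicate 1). The count toward the hippocampus was 1 without hippocampus replicate 1, 2 or 3 or cerebellum replicate 1, and 0 without cerebellum replicate 3. Fgf8, the organizer's secreted signal, read 6.73, 6.79 and 6.17 against 6.17, 6.61 and 6.01, and Wnt1 differed as little (-0.23), with neither passing the test. Gbx2, a homeobox gene of the anterior hindbrain that is also made in thalamus, differed by 1.19 (adjusted p = 0.096). Pax5, Pax8, Fgf17, Lmx1a and Lmx1b were too dim to be tested.

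Homeodomain proteins, engrailed among them, share a core DNA sequence, TAATTA, which reads the same on both strands. It was searched in the 250 bases before the start of each gene, in RefSeq promoters (GRCm38.p6). It lay in 4.84% of all 32851 promoters. Of the 11814 tested genes with a promoter in the table, 3.56% had it in at least 1 of their promoters. Shares of genes are counted in this way throughout, so they are not shares of promoters. Among genes at least 16-fold higher in the cerebellum it lay in 5 of 46 (10.9%), and among those at least 16-fold higher in the hippocampus in 4 of 64 (6.25%). At the 2-fold threshold the shares were 4.57 and 4.13%. The matches below are shown because they belong to genes that differed at least 16-fold between the regions. Krt71, Myh4, Smpx and Spp1 were the others with a match. Capitals mark 1 core per gene, with 20 bases on either side, in the direction of the gene. Tbr1 has another match, 18 bases before the start, which stands in lower case in its stretch. Further matches of Dlx6os1, 130 and 74 bases before a start, are not shown.
Pcp2 (chr8:3625358-3625403, minus strand, core 101 bases before the start): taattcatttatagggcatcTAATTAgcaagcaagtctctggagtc
Krt25 (chr11:99323057-99323102, minus strand, 131 bases before): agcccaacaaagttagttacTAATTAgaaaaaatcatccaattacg
Tbr1 (chr2:61804400-61804445, plus strand, 33 bases before): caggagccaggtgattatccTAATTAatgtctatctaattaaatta
Robo3 (chr9:37433251-37433296, minus strand, 101 bases before): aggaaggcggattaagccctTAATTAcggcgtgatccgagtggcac
Dlx6os1 (chr6:6861832-6861877, minus strand, 174 bases before): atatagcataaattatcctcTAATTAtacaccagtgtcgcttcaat

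The genes with these promoters lay on both sides. Pcp2, a Purkinje cell modulator of G proteins, read 10.75, 10.47 and 9.98 in the hippocampus and 14.58, 14.00 and 14.88 in the cerebellum, a difference of 4.09 ± 0.29. Krt25, a type I keratin gene, was above background in the cerebellum alone (8.90 to 9.60, at least 23.9-fold higher). Tbr1, a T-box factor of cortical neurons, read 8.50 to 9.52 in the hippocampus against 2.43, 2.62 and 2.84. Robo3, an axon guidance receptor, read 12.06, 11.53 and 11.47 against 6.79, 6.83 and 6.87, a difference of -4.86 ± 0.20. Dlx6os1, a noncoding transcript of the Dlx5 and Dlx6 locus, was at least 44.8-fold higher in the hippocampus. A match of 6 letters is a description of these windows and not a binding site. Other motifs were searched on both strands in the same windows. Shares are given of all promoters, of tested genes, and of genes at least 16-fold higher in the cerebellum and in the hippocampus. The half-site AGGTCA, which the Purkinje cell factor Rora and other nuclear receptors bind, was in 14.0, 13.4, 15.2 and 9.38%. The E-box CAGATG of bHLH factors was in 14.4, 12.7, 23.9 (11 of 46 genes) and 15.6%. The E-box CAGCTG was in 4271 of the 32851 promoters, in 14.6% of tested genes, in 6 of 46 and in 17.2%.

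Hox genes and genes of monoaminergic neurons, which mark brain stem tissue beside the cerebellum, were read mainly in the cerebellar samples. Of 21 Hox genes listed, 14 passed the filter on dim probes and 10 of these were higher in the cerebellum. Most passed through the cerebellum alone, so this count is a description. Hoxb2 read 2.24, 2.23 and 2.11 in the hippocampus against 10.37, 9.63 and 9.51 in the cerebellum, at least 36.0-fold higher. Hoxd4 read 8.95, 6.53 and 7.21 against 1.92 to 2.07, at least 7.44-fold higher. Cerebellum replicate 1 was the highest for both genes, as it was for Hoxb5. Hoxa3 was called the other way (-0.65, adjusted p = 0.035), but the mean over its probes gave 0.72, and it was not called without any of the hippocampal arrays or without cerebellum replicate 2 or 3. Of 10 monoaminergic neuron genes tested, 8 were higher in the cerebellum, but Th, Slc6a4 and Fev passed the filter through the cerebellum alone, and with all arrays above background 3 were called. Slc6a4, the serotonin transporter, read 9.35, 10.32 and 10.20 against 2.44 to 2.65, at least 39.1-fold higher, and the catecholamine enzyme Th was at least 19.1-fold higher. Tph2, the neuronal enzyme of serotonin synthesis, read 8.49, 9.85 and 9.65 against 1.98, 5.23 and 5.21, a difference of 5.19 ± 0.87. The dopamine transporter Slc6a3 read 6.83, 6.28 and 7.25 in the hippocampus against 5.26, 12.35 and 11.60 in the cerebellum. The first cerebellar array lay below the hippocampus, and the difference did not pass (adjusted p = 0.23). For these lists the mean log2 level of the members in the cerebellum was 7.99, 7.07 and 6.76 (Hox) and 8.56, 9.94 and 9.69 (monoaminergic) on arrays 1, 2 and 3, against 3.64 to 3.79 and 6.13 to 6.42 in the hippocampus. The part of brain stem tissue in other results was not tested.

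Glial markers differed in part and vascular markers little, and many of these counts rested on single arrays. Of all genes tested, 12.9% were higher in the cerebellum and 14.1% in the hippocampus. Of 13 oligodendrocyte genes tested, 4 were higher in the cerebellum (median 0.50), among them Mobp, a myelin protein gene, at 1.11 ± 0.28 (adjusted p = 0.024). Leaving out any of 5 arrays lowered that count to 1 or 2: hippocampus replicates 2 and 3 and the cerebellar replicates 1, 2 and 3. Of 11 astrocyte genes, 6 were higher in the cerebellum (median 0.49), led by S100b (1.59) and Aqp4 (1.42), the water channel, and this count was 3 without hippocampus replicate 2 or without cerebellum replicate 3. Gfap read 13.11, 12.20 and 11.97 against 12.69, 12.18 and 12.08, with the regions overlapping. Of 12 microglia genes, 8 were higher in the hippocampus and none in the cerebellum (median -0.81). P2ry12, a purinergic receptor of resting microglia, read 9.34, 9.79 and 9.80 in the hippocampus and 7.66, 7.85 and 7.79 in the cerebellum, a difference of -1.88 ± 0.18 (adjusted p = 3.7e-04). The microglia count was 4, 4 and 3 without hippocampus replicate 1, 2 or 3 and 5 without cerebellum replicate 3. Of 10 endothelial genes, 2 were higher in the cerebellum, Pecam1 (0.77) and Flt1 (0.53), beside 12.9% of all genes tested. Leaving out any array of the mutants gave 0 or 1. Of 12 reference genes, Ywhaz alone differed (-1.19, adjusted p = 0.011), and the median of the list was 0.24.

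Receptor and channel families had members higher in either region. Their counts stand beside 12.9% of all genes tested that were higher in the cerebellum and 14.1% that were higher in the hippocampus. Of 24 glutamate receptor genes tested, 7 were higher in the cerebellum and 9 in the hippocampus, with a median of 0.09. Grm4, a presynaptic receptor of parallel fibres, was above background in the cerebellum alone (at least 9.25-fold). Among NMDA receptor subunits, Grin2c, the subunit of mature cerebellar granule cells, read 12.54, 12.67 and 12.91 in the hippocampus and 14.06, 14.21 and 14.42 in the cerebellum, a difference of 1.52 ± 0.18. Grin2b, the subunit of the forebrain, read 10.86, 11.73 and 11.30 against 7.12, 5.42 and 7.19, a difference of -4.72 ± 0.49. Of 19 GABA and glycine receptor genes, 4 were higher in the cerebellum (2 with all arrays above background) and 5 in the hippocampus. These counts are small beside the shares over all genes and describe single members. Besides Gabra6, those toward the cerebellum included Gabrd (1.93) and Glra1, the glycine receptor subunit of the brain stem and spinal cord, which was at least 9.98-fold higher. Gabra5, the extrasynaptic subunit of hippocampal pyramidal cells, read 12.43, 12.74 and 12.44 in the hippocampus against 9.31, 9.83 and 9.47, 8.02-fold lower in the cerebellum.

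Of 28 sodium and calcium channel genes, 8 were higher in the cerebellum and 11 in the hippocampus (median -0.25), beside 12.9 and 14.1% of all genes tested. Cacna2d2, an auxiliary calcium channel subunit of Purkinje cells, was 3.22 ± 0.19 higher in the cerebellum, and Cacna1h, a T-type channel, differed by -3.19. Scn3b, a beta subunit of sodium channels, read 15.70, 15.82 and 15.63 in the hippocampus and 12.82, 13.04 and 12.82 in the cerebellum, with no overlap. Of 31 potassium channel genes, 8 were higher in the cerebellum and 12 in the hippocampus (9 with all arrays above background), with a median of 0.02. The silent subunit Kcnv1 and the Eag family channel Kcnh3 were above background in the hippocampus alone (at least 19.6-fold and at least 17.0-fold), and the silent subunit Kcng4 was 3.86 higher in the cerebellum. The count of potassium channel genes higher in the cerebellum was 4 without hippocampus replicate 3, 5 without cerebellum replicate 1 and 4 without cerebellum replicate 3. Of 30 synapse organizers, 6 were higher in the cerebellum and 11 in the hippocampus (median -0.27). Cbln1 and Cbln3 stood at one end, and C1ql2 and C1ql3, complement-like proteins of mossy fibre synapses, at the other (-2.65 and -2.64). Of 10 genes of vesicular transport and GABA synthesis, 7 were higher in the cerebellum and 1 in the hippocampus, the vesicular glutamate transporter Slc17a7 (-2.09). Among the 7, Slc6a5 and Slc18a3 passed the filter through the cerebellum alone, so their direction was set by the filter. Slc17a6, its counterpart in subcortical neurons, was 1.89 higher in the cerebellum.

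Lists for neighbouring regions were mixed, and their counts stand beside 12.9% of all genes tested higher in the cerebellum and 14.1% higher in the hippocampus. Of 11 striatum genes, 4 were higher in the cerebellum, among them the opioid precursor Penk (1.97), and the dopamine receptor Drd1 was higher in the hippocampus (-3.04). Without cerebellum replicate 3 the first count was 2. Of 10 genes of neocortical layers, 4 were higher in the hippocampus, led by Fezf2, and 3 in the cerebellum. The first count was 2 without hippocampus replicate 3 and without cerebellum replicate 1 or 3. Of 13 choroid plexus genes tested, none passed, and the median was 0.47. Ttr, the transthyretin gene of that epithelium, read 15.12, 10.23 and 13.62 in the hippocampus and 13.10, 13.66 and 13.62 in the cerebellum, so that the hippocampal arrays spanned the cerebellar ones. Of 13 thalamus genes, 4 were higher in the hippocampus and Slc17a6 in the cerebellum, with a median of -0.65. The 4 were Synpo2 (-2.24), an actin-binding protein, Plekhg1 (-1.28), the Wnt effector Lef1 (-0.96) and Rgs16 (-0.83), a regulator of G protein signalling. Without hippocampus replicate 2, which had the lowest level of thalamus genes of the mutant hippocampi, 7 were higher in the hippocampus. Without hippocampus replicate 1 or 3, 2 were higher in the cerebellum.

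Set beside wild type mice, the regional pattern was largely kept. In wild type mice 4336 of 15519 genes tested differed between the regions (27.9%), 2303 toward the cerebellum and 2033 toward the hippocampus. Of 15123 genes tested in both genotypes, 2619 were called in both in the same direction, 1264 toward the cerebellum and 1355 toward the hippocampus. They made up 62.6% of the 4185 wild type calls and 64.4% of the 4064 mutant calls. A call in 1 genotype alone is no test of a difference: of 1559 genes called in wild type mice alone, 87.5% had the same sign in the mutants, and of 1438 called in mutants alone, 88.4% had the same sign in wild type mice. Across genes, which are not independent replicates, the regional differences of the genotypes correlated with Pearson's r of 0.871 and Spearman's rho of 0.714. Among the 2909 genes called with at least a 2-fold difference in wild type mice, 97.5% had the same sign in the mutants, and the median ratio of the mutant to the wild type log2 difference was 0.80. These genes were chosen by their wild type size. The reverse choice, 2478 genes at least 2-fold in mutants, gave 98.1% of the same sign and a median ratio of wild type to mutant of 0.97.

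**Figure D3:**
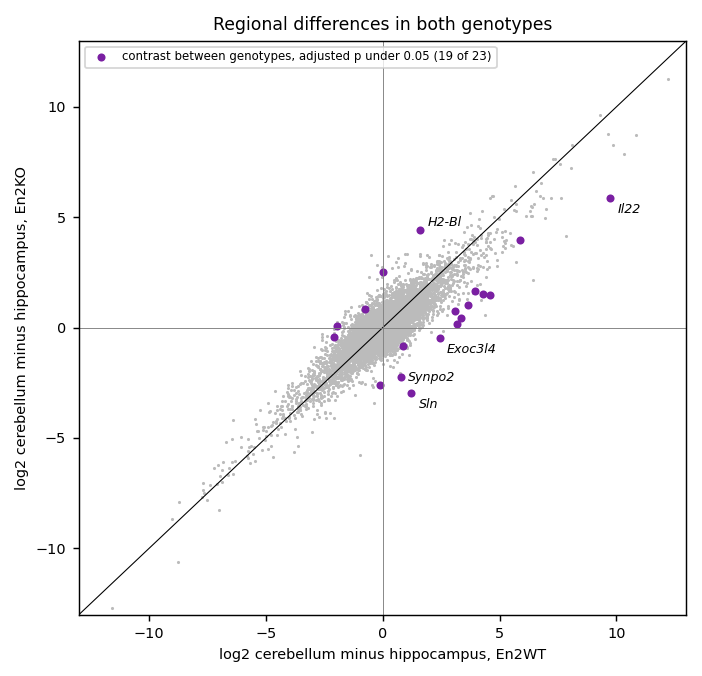
Log2 difference between cerebellum and hippocampus in En2WT (x axis) and in En2KO (y axis) for the 15123 genes tested in both, with a line of equal difference. Grey points are genes, purple points the 19 of 23 genes with a called contrast between genotypes that were tested in both; the cloud follows the line with r = 0.871 and the purple points lie off it.

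Regional markers followed the whole. Of the 8 genes with the largest cerebellar and the 8 with the largest hippocampal differences in the mutants, each was called the same way in wild type mice, and Il22 alone had a called contrast between genotypes. The list of pyramidal neurons had 15 members higher in the wild type hippocampus and 14 in the mutant, dentate granule neurons 8 and 6, forebrain transcription factors 16 and 15, and Purkinje cells 16 and 16 in the cerebellum. For 15 of the 16 Purkinje cell genes the contrast (mutant minus wild type regional difference) was below 0, with a median of -0.74, while over all 15668 genes tested for it 57.4% were below 0 and the median was -0.09. None of the 16 passed the test singly. Contrasts were above 0 in 8 of 10 dentate granule neuron genes (median 0.66) and 12 of 18 forebrain transcription factors (median 0.65). The same held for 10 of 17 pyramidal neuron genes (median 0.30) and 6 of 10 forebrain interneuron genes (median 0.13). It also held for 9 of 12 reference genes (median 0.45), so with this normalization the direction was not particular to hippocampal lists. With scaling to the 75th percentile the median contrast was 0.09 for reference genes and -0.19 for all genes. In that scaling it was 0.54 for dentate granule neurons, 0.41 for forebrain transcription factors, 0.12 for forebrain interneurons and -0.02 for pyramidal neurons. No gene of these lists passed the test of the contrast either. Ppp1r17 is an example from the Purkinje cell list. In the cerebellum it read 13.92, 13.67 and 14.32 in wild type mice and 13.14, 13.24 and 13.21 in mutants. In the hippocampus it read 3.08, 3.85 and 3.85 and then 6.60, 4.5 and 5.05 (contrast -2.57, adjusted p = 0.23). Its arrays were apart between genotypes in both regions.

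The levels of thalamus and choroid plexus genes in the hippocampus varied between arrays. The mean log2 level of the 13 thalamus genes in the hippocampus was 8.95, 8.84 and 8.68 in wild type mice and 10.18, 9.51 and 10.22 in mutants, without overlap, while in the cerebellum both genotypes lay between 9.46 and 9.73. The median regional difference of the list was accordingly 0.78 in wild type mice and -0.65 in mutants, and 11 of the 13 contrasts were below 0, with a median of -1.30. Synpo2 and Rgs16 passed the test of the contrast. Tnnt1, a troponin gene, read 8.39 to 9.10 in the wild type hippocampus and 11.05, 8.74 and 11.06 in the mutant, where replicate 2 lay within the wild type range (contrast -2.18, adjusted p = 0.33). For the 13 choroid plexus genes, the mean level was 10.16, 10.76 and 11.40 in the wild type hippocampus and 12.01, 7.72 and 10.24 in the mutant, so that the mutant arrays spanned the wild type ones and replicate 2 of the mutant hippocampus was the lowest of its group for both lists. In the cerebellum the choroid plexus level was 9.73 to 9.87 in wild type mice and 10.11 to 10.28 in mutants. In wild type mice 6 of these genes were higher in the hippocampus and in mutants 0, and all 13 contrasts were above 0 (median 1.26), none of them passing the test. Without that replicate, 7 of 12 choroid plexus contrasts were above 0 with a median of 0.18, and for thalamus genes 11 of 13 were below 0 with a median of -1.45. In the cerebellum, replicate 3 of wild type mice had the lowest Hox level (5.97 against 7.69 and 7.78) and the lowest monoaminergic level (8.07, with up to 9.32 on the others). The part of thalamus, choroid plexus or brain stem tissue in the contrasts below was not tested.

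**Figure D4:**
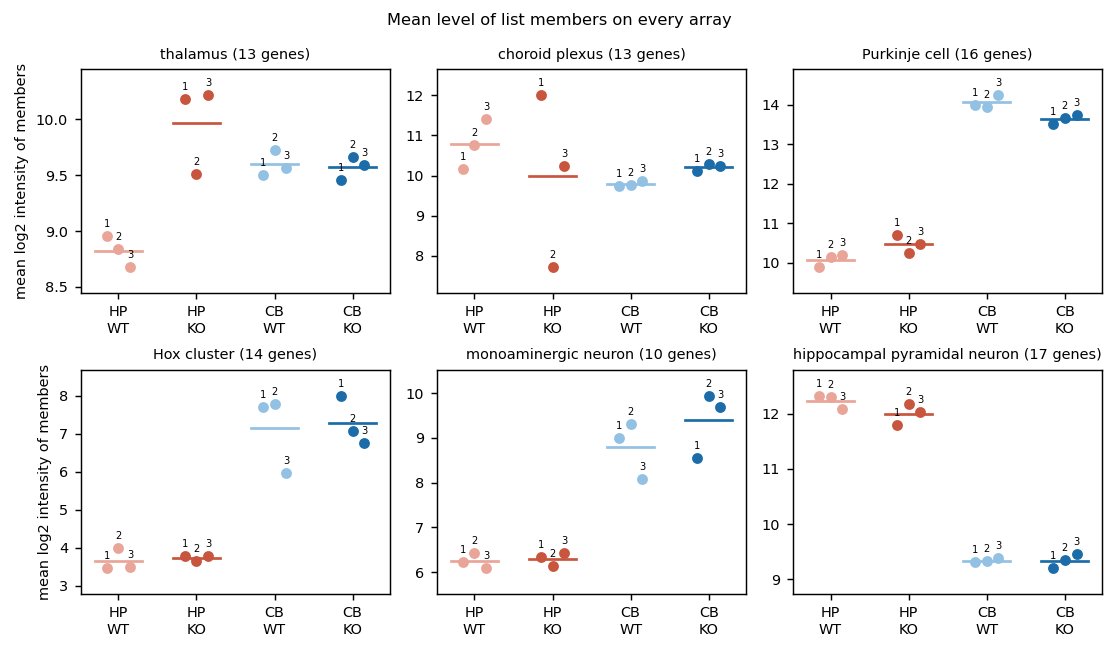
Mean log2 intensity of the members of 6 gene lists (y axis, quantile normalized over 12 arrays) on every array, by group (HP hippocampus, CB cerebellum, WT En2WT, KO En2KO). Points are arrays with their replicate numbers and lines are group means; thalamus genes in the hippocampus lie at 8.68 to 8.95 in En2WT and 9.51 to 10.22 in En2KO, and hippocampus replicate 2 of En2KO is lowest of its group for thalamus and choroid plexus.

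The difference between cerebellum and hippocampus itself differed between genotypes for 23 of 15668 genes (0.147%), and 1855 genes had an unadjusted p under 0.05. The contrast was below 0 for 17 and above 0 for 6. It came with a larger shift between genotypes in the hippocampus for 12 genes, 10 of which were higher in the mutant hippocampus, and in the cerebellum for 11 genes, 7 of which were lower in the mutant cerebellum. The regional difference was smaller in mutants for 16 of the 23. The count rests on few arrays: it was 7 and 15 without wild type hippocampus replicate 1 and 2, 36 without mutant hippocampus replicate 1, 5 without wild type cerebellum replicate 1, and 15, 12 and 5 without mutant cerebellum replicate 1, 2 and 3. Prl2c5, Shox2 and Svs5 alone were called in all 12 of these fits, and 14 of the 23 were well above background on all 12 arrays. With the replicate number within each genotype as a block, 2 genes were called and Prl2c5 was the only one of the 23 among them. With the slide as a block over all arrays, chosen after seeing the data, 20 were called, 18 of them among the 23.

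For 9 of the 23 genes, at least 1 group had no array well above background, so that the size of the contrast depends on readings below background and is not a measured size. With those groups raised to the dimmest signal well above background on each array, the contrast was -5.80 for Prl2c5, -2.04 for Cps1, -1.92 for Il22, -1.71 for Mdfi, -1.05 for Svs5, -0.88 for Krt7, -0.32 for Shox2, 0.85 for C530042K13Rik and 1.96 for Hmcn1. After normexp background correction, Prl2c5 (-3.47) and Mdfi (-1.25) were still called. The others were not, at -0.98 for Cps1, -1.20 for Il22, -0.40 for Svs5, -0.50 for Krt7, -0.31 for Shox2, 0.28 for C530042K13Rik and 0.91 for Hmcn1.

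Several genes read lower in the mutant than in the wild type cerebellum. Prl2c5, a gene of the prolactin family, read 9.19 or more on every array of the wild type cerebellum and 3.54, 3.33 and 5.07 in the mutant, and was near 2 in both hippocampi, below background (contrast -5.56, adjusted p = 0.0038). Krt28, a keratin gene, read 9.72, 10.07 and 11.14 in the wild type cerebellum and 7.59, 7.27 and 7.26 in the mutant, beside 6.62 to 7.24 in all hippocampi (contrast -2.92). Cdc20, an activator of the anaphase-promoting complex, read 10.82, 10.46 and 10.55 and then 9.12, 8.15 and 9.07 (contrast -2.36). In each of these the cerebellar arrays of the genotypes were apart. Mdfi, an inhibitor of myogenic bHLH factors, and Svs5, a seminal vesicle protein gene above background in the wild type cerebellum alone, moved alike (contrasts -2.32 and -2.55).

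Other genes read higher in the mutant than in the wild type hippocampus. Shox2, a homeobox gene made in thalamus, read 1.93 to 2.21 in the wild type hippocampus, below background, and 5.45, 5.22 and 5.32 in the mutant, with 5.81 to 7.06 in both cerebella (contrast -2.70, adjusted p = 0.0068). Exoc3l4 read 8.10, 8.23 and 8.82 and then 12.57, 11.81 and 11.53, reaching the level of the mutant cerebellum (11.78, 11.22 and 11.47), so that a regional difference of 2.44 in wild type mice was no longer found (-0.48; contrast -2.93). Il22 read 1.81, 3.73 and 1.96 in the wild type hippocampus, below background, and 6.22, 6.18 and 5.61 in the mutant, while the cerebellum stayed at 11.61 to 12.65 (contrast -3.85). The arrays of the hippocampus did not overlap between genotypes for any of these. Jaml, an adhesion molecule (-3.12), Krt7, a keratin (-2.98), Nexn, an actin-binding protein (-2.68), Olfr921, annotated as an odorant receptor (-2.45), and Irx1, an Iroquois homeobox gene (-1.95), showed the same kind of contrast. The second probe of Irx1 gave 0.17.

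For a few genes the direction turned. Sln, encoding sarcolipin, a regulator of the calcium pump, read 9.64, 7.97 and 8.74 in the wild type hippocampus and 9.58, 9.83 and 10.65 in the wild type cerebellum, but 10.98, 10.81 and 9.84 in the mutant hippocampus and 7.78, 6.94 and 7.99 in the mutant cerebellum (contrast -4.20, adjusted p = 0.028). The regions overlapped in wild type mice and were apart in mutants. Synpo2 read 9.03, 9.07 and 9.54 against 9.90, 9.81 and 10.29 in wild type mice, and 12.18, 10.78 and 11.85 against 9.37, 9.43 and 9.31 in mutants (contrast -3.02). Its other probes gave contrasts of -1.57, 0.11 and 0.51. Rgs16 read 9.69, 9.50 and 9.44 against 10.27, 10.55 and 10.45 in wild type mice, and 11.03, 10.37 and 10.87 against 9.75 to 10.03 in mutants (contrast -1.71). Cps1, a mitochondrial enzyme of the urea cycle, was above background on all arrays of the wild type cerebellum and on none of the mutant one (contrast -5.02). Genes called in both genotypes in opposite directions numbered 7, namely Synpo2, Rgs16, Gbp7, Gm7968, Olfr1443, Ralgapa2 and Ssh1. Ralgapa2 and Ssh1 were read by different probes in the genotypes. Ssh1, with differences of 1.14 in wild type mice and -1.25 in mutants, differed at least 2-fold in both, but with the same probe its mutant difference was 0.69.

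The promoter of Synpo2, the thalamus gene with the largest contrast, also holds the homeodomain core, 224 bases before the start. The core lay in 3.56% of the promoters of tested genes. No share was counted for the contrast genes or the thalamus list, and a link between the core and the contrast was not tested. The Synpo2 promoter is shown whole, as the 250 bases before the start on the minus strand (chr3:123236150-123236399, GRCm38.p6), with the core in capitals.
Synpo2: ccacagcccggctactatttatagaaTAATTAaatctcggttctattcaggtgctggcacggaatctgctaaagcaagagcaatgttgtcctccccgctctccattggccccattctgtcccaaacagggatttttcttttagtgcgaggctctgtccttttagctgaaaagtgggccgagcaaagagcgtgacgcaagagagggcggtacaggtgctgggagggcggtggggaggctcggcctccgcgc

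The contrast was above 0 for 6 genes. Gbp7, an interferon-induced GTPase, read 7.23, 7.10 and 7.06 in the wild type hippocampus and 5.61, 5.64 and 5.53 in the mutant, with the cerebellum at 6.25 to 6.60 in both genotypes (contrast 1.62). Fam163a (1.68) and the calcium-dependent kinase gene Camk1d (2.01) were lower in the mutant than in the wild type hippocampus and higher in the mutant cerebellum. The other probes of Camk1d gave 0.17 and 1.91. Hmcn1, a matrix protein of the hemicentin family, read 4.93, 5.04 and 5.43 in the wild type cerebellum and 6.49, 7.18 and 6.61 in the mutant. Its second probe gave a contrast of 1.71 beside 2.50, but was above background on no hippocampal array of either genotype. C530042K13Rik was above background in the mutant cerebellum alone (2.32). H2-Bl, a class I histocompatibility gene, had a contrast of 2.20, but its other probes gave -0.96 and 0.40. Prl2c5, Olfr921 and H2-Bl belong to families with near-identical members, which a probe may not separate. The contrast genes lay on many chromosomes, with none on chromosome 5, which carries En2.

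**Figure D5:**
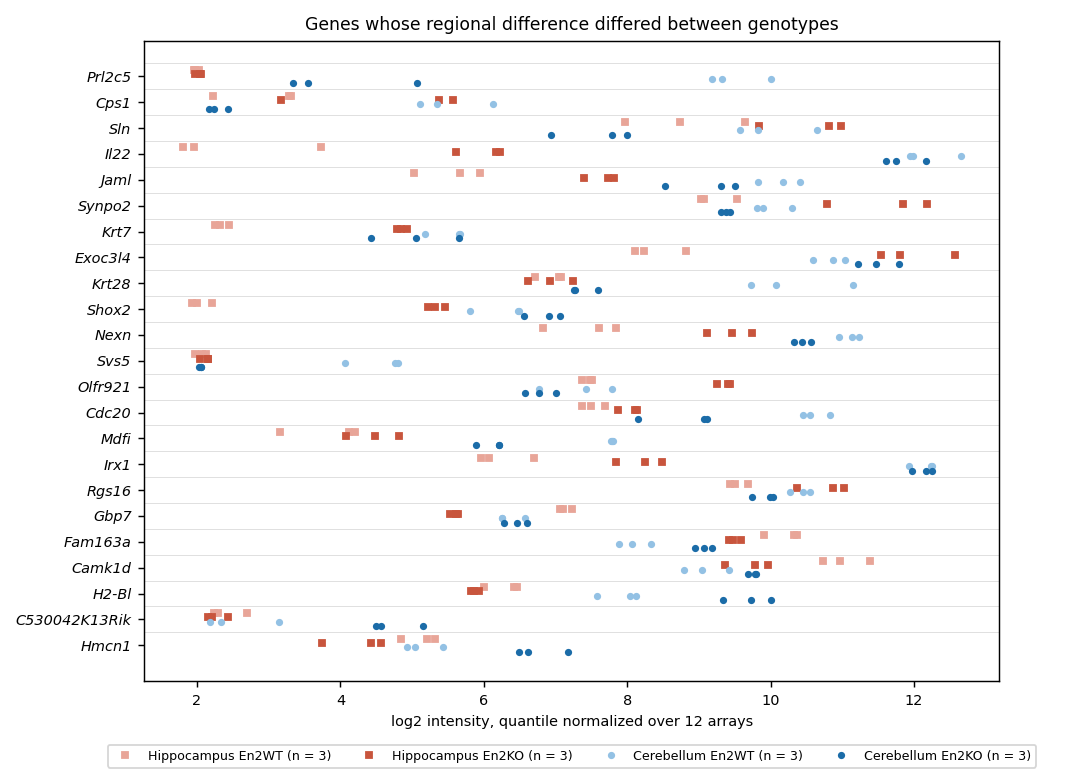
Log2 intensity (x axis, quantile normalized over 12 arrays) of the 23 genes whose regional difference differed between genotypes, ordered by contrast. Squares are hippocampus and circles cerebellum, light shades En2WT and dark shades En2KO, 3 arrays each; for Prl2c5 the mutant cerebellum (3.33 to 5.07) lies far from the wild type cerebellum (9.19 and above), and for Shox2 the mutant hippocampus (5.22 to 5.45) from the wild type one (1.93 to 2.21, below background).

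Full loss or gain of a large difference was rare. Of the genes tested in both genotypes, 823 were called with at least a 4-fold difference in mutants, and 11 of these differed under 1.5-fold in wild type mice. The other way round it was 17 of 975. Among the 10 genes with the largest contrasts, Krt7, Exoc3l4, Krt28, Olfr921 and Hmcn1 passed the test of the contrast and the other 5 did not. Outside these 10, Fam163a passed it too, with -2.10 in wild type mice and -0.43 in mutants. Muc15, a mucin gene, differed by 4.40 in wild type mice and 0.57 in mutants (contrast -3.74, adjusted p = 0.096). Myl1, a fast-muscle myosin light chain, differed by -0.37 and -3.40 (contrast -3.03, adjusted p = 0.099). Scp2d1 (-2.71), Dmrta1 (2.51) and Cmtm2b (-2.27) had adjusted p of 0.45, 0.35 and 0.17. Among channels, Scn1a, the sodium channel gene of fast-spiking neurons, differed by -0.31 in wild type mice and 1.40 in mutants (contrast 1.70, adjusted p = 0.18).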

How the data were processed

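RNA of whole cerebellum and hippocampus was measured on 12 one-colour Agilent arrays. The authors deposited, for each array, the scanner output of Agilent Feature Extraction, with the background-corrected intensity of every spot on a linear scale, and a table of log2 values. The latter was normalized separately in each tissue, so it was used only for the contrast between genotypes as an alternative. No column belonged to samples of another series (0).

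Processed intensities were taken as log2 without control spots and outlier-marked spots, quantile normalized over the 6 arrays of a genotype or, for the contrast, over all 12, and averaged over repeated spots. Of 41174 probes, 34615 had a gene name in the cerebellum files, whose annotation was used for both tissues since names differed for 4691 spots. Of 20976 gene names, 17935 were reference symbols, 1589 were updated by accession, 332 by an older symbol and 1120 kept. Each gene was read by its probe with the highest mean, and tested if at least 1 group had this probe well above background on each of its 3 arrays, and each group values on at least 2. Sources give mm9 for probe positions, and promoters came from RefSeq (GRCm38.p6).

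Linear models were fitted with limma 3.58.1 in R 4.3.3, with Benjamini-Hochberg adjustment over all genes and a threshold of 0.05. Fits were tested on simulated data. Figures used matplotlib 3.10.9 in Python 3.11.15. An exact permutation test of 3 against 3 arrays cannot go below 0.1. The number of arrays limits the precision.

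Genes were named by rule: the targeted gene, the 8 largest differences per direction among genes above background everywhere and the 5 among genes above background in 1 region, per list the 3 largest, the smallest and those against the list's direction, the 20 largest contrasts, opposite calls and genes 4-fold in 1 genotype and under 1.5-fold in the other. Some genes that the rule names are not reported here. Genes outside it were chosen after their values were seen. Members and lists were chosen with earlier results of these data known. Skor2, Crh, Kcnj13 and Scn4b had no named probe.

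Replicate numbers mark the slide per the file headers. Deviations of same-numbered arrays correlated at 0.157, 0.119 and -0.078 in mutants and 0.251, -0.202 and 0.076 in wild type mice.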

Additional observations from a re-analysis of the deposited data

Results flagged for a closer look

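The regional difference differed between genotypes by a test of the difference itself for 23 genes. The values are mutant minus wild type, on the log2 scale. Contrasts below 0, where the mutant difference lay more toward the hippocampus, were those of Prl2c5 (-5.56), Cps1 (-5.02), Sln (-4.20), Il22 (-3.85), Jaml (-3.12), Synpo2 (-3.02), Krt7 (-2.98), Exoc3l4 (-2.93), Krt28 (-2.92), Shox2 (-2.70), Nexn (-2.68), Svs5 (-2.55), Olfr921 (-2.45), Cdc20 (-2.36), Mdfi (-2.32), Irx1 (-1.95) and Rgs16 (-1.71). Contrasts above 0 were those of Gbp7 (1.62), Fam163a (1.68), Camk1d (2.01), H2-Bl (2.20), C530042K13Rik (2.32) and Hmcn1 (2.50). For Prl2c5, Cps1, Il22, Krt7, Shox2, Svs5, Mdfi, C530042K13Rik and Hmcn1, at least 1 group had no array well above background, so these sizes depend on readings below background. With such groups at the dimmest signal above background, Shox2 was -0.32, Krt7 -0.88, C530042K13Rik 0.85 and Svs5 -1.05.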

How the results depend on the processing

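The 4153 genes called between the regions in mutants became 3767 to 4233 under other scalings, background corrections, filters and probe rules and with the replicate number as a block (3906; 4269 in wild type mice, 2576 in both). The rank product called 1621 in mutants and 1649 in wild type mice, 1571 and 1628 of them also called by limma. Pearson's r was 0.803 without a filter and 0.841 with all arrays above background. The count of contrasts, 23, was 15 after normexp, 12 with the authors' values, 14 without a filter, 14 with all arrays above background and 2 with the replicate block. Leaving out 1 array gave 2532 to 4038 genes in mutants, 2184 to 2753 at 2-fold or more, 3109 to 4685 in wild type mice, 1967 to 2738 in both, r of 0.826 to 0.892, 5 to 36 contrasts and 184 to 213 called list members (226 with all arrays). Of 134 named genes called in mutants, 113 kept their call in each setting where they were tested, while 22 of the 23 contrasts lost it somewhere. Genes above background in 1 region alone were not tested with all arrays above background, and this was not counted as a loss. Direction turned for Hoxa3 with the mean of probes (0.72), for Ssh1 with that mean (0.12), with the same probe in both genotypes (0.69) and without mutant hippocampus replicate 1, 2 or 3 (0.52, 0.78 and 0.77; -1.30 without mutant cerebellum replicate 1), and for the contrast of H2-Bl without wild type hippocampus replicate 1, 2 or 3 (-0.98, -0.61 and -1.27) or wild type cerebellum replicate 1 (-1.27), where another probe was the brightest (2.38 without mutant cerebellum replicate 2). The median contrast of pyramidal neuron genes was 0.30, and -0.02 with scaling to the 75th percentile. The same probe and the slide block were chosen after seeing the data. Signal near background limits Hox, organizer and single-region genes: with all arrays above background, no Hox gene was called higher in the cerebellum. The authors' values were not run for the regional comparison.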
